A study of Mus musculus with 12 samples.

Results

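The mitochondrially encoded transcripts of mouse oral tumours are described here. Members were the genes of the deposited expression table whose symbol starts with mt-, which gave 37 of 55401 genes: 13 mRNA genes, 2 rRNA genes and 22 tRNA genes. RNA was sequenced from 12 tumour libraries, 3 in each of 4 treatment groups of C57BL/6 mice, which were 6 to 8 weeks old per the methods of the study. The tumours grew orthotopically from mouse oral cancer cells, named MTC-Q1 in the labels' protocol and Q1-2 in the sample titles, so each library holds the RNA of tumour cells and of the cells of the host around and within them. Ctrl-IgG mice received a control isotype antibody with an IgG1-Fc part. aCSF1R mice received an antibody against CSF1R, the receptor on which macrophages depend, IL-10-Fc mice received recombinant interleukin-10 joined to an antibody Fc part, and BF10 mice received a single molecule that joins the CSF1R antibody to interleukin-10. Dosing started once tumours measured 100 mm3. The labels give the number of doses as 6 in the treatment protocol and as 4 in the design of the series. Nothing in the labels says whether mice were pooled, and p-values measure the spread between these libraries.

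The mitochondrial genome is a small circle present in many copies per cell. Its mRNAs encode core subunits of the complexes of the respiratory chain and of the ATP synthase, its rRNAs build the mitochondrial ribosome, and its tRNAs serve translation inside the organelle. Each strand is transcribed as a long precursor that is cut mostly at the tRNAs, which stand between the mRNAs and rRNAs. Most of the mRNAs then receive short poly(A) tails. The tails matter for 2 reasons: a poly(A) selection such as the one used for these libraries retains RNA through them, and some of these genes end without a whole stop codon, which polyadenylation completes.

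On GRCm38, the 37 genes lie on chrM between bases 1 and 15422, and 12 of the 13 mRNA genes are on the plus strand. The exception is mt-Nd6, at chrM:13552-14070. The genes have no introns and are packed end to end. The ends of 3 mRNA genes are shown first, since in mt-Co3, mt-Nd4 and mt-Cytb the annotated gene stops 1 base after the last whole codon, and this base is in capitals. The end of mt-Co1, which carries a complete stop codon (capitals), is shown for comparison. The sequences are those of the GENCODE M21 transcripts on GRCm38, 5′ to 3′, plus strand.
mt-Co3, chrM:9360-9390: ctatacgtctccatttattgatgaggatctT
mt-Nd4, chrM:11514-11544: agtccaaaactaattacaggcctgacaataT
mt-Cytb, chrM:15258-15288: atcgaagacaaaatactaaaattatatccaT
mt-Co1, chrM:6843-6872: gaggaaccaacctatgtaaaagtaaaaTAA

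Some neighbours share bases. mt-Atp8 and mt-Atp6 overlap by 43 bases (capitals in the next stretch, which is the end of mt-Atp8) and mt-Nd4l and mt-Nd4 by 7 bases, both pairs on the same strand, so that a read within the shared bases cannot be given to 1 gene. mt-Nd5 and mt-Nd6, on opposite strands, overlap by 14 bases, and whether the counting used strand is not given in the sources used here.
mt-Atp8 with mt-Atp6, chrM:7910-7969: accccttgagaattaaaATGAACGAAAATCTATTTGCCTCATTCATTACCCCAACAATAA
mt-Nd4l with mt-Nd4, chrM:10144-10173: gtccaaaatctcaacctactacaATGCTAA

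Values are FPKM, a count of fragments scaled to gene length and library total, so levels can be compared between genes per length. The read depth of a library cannot be read from them. The FPKM of all genes summed to between 637596 and 976950.0 per library, and no libraries held identical values (0 pairs). The highest sums, 819001 to 976950.0, were in IL-10-Fc replicates 1 and 2, BF10 replicate 1 and Ctrl-IgG replicate 2. In these 4 libraries Actb, the gene of beta-actin, was at 524 to 1032 FPKM, against 1452 to 2018 FPKM in the other 8. A further split runs along the groups. Xist, the RNA that silences an X chromosome in female cells, was at 0.01 to 0.04 FPKM across Ctrl-IgG and aCSF1R and at 17.1 to 30.7 FPKM across IL-10-Fc and BF10. Krt18, a keratin of simple epithelium, was at 0 to 0.09 FPKM against 294 to 614 FPKM, and H2-Ea, a class II histocompatibility gene that the C57BL/6 strain does not express, at 0.04 to 0.27 FPKM against 553 to 1727 FPKM. The H2-Ea level of IL-10-Fc and BF10 is at odds with the strain given for all groups. Eif2s3y, a gene of the Y chromosome, was at 4.23 to 11.33 FPKM across Ctrl-IgG and aCSF1R. It was at 0 to 0.05 FPKM in IL-10-Fc and in BF10 replicates 1 and 2. In BF10 replicate 3 it was at 3.29 FPKM, beside Xist at 23.65 FPKM. Any difference between these pairs of groups therefore cannot be told apart from a difference of the animals or of the tumour cells. The labelled cell type, oral cancer, was checked with keratins: the summed level of 6 simple epithelial markers was 0.90 to 9.11 FPKM across Ctrl-IgG and aCSF1R and 598 to 1577 FPKM in the others. The summed level of 14 keratinocyte markers was 5.43 to 7.17 FPKM in Ctrl-IgG replicates 1 and 2 and aCSF1R replicate 3, 1631 to 2233 FPKM in Ctrl-IgG replicate 3 and aCSF1R replicates 1 and 2, and 30.5 to 68.8 FPKM across IL-10-Fc and BF10. In 3 libraries, then, both sums of epithelial markers were at or below 7.17 FPKM.

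Mitochondrially encoded RNA took between 2.99% and 9.04% of the FPKM sum of a library. The shares were 3.00%, 7.19% and 3.30% for Ctrl-IgG, 3.32%, 3.61% and 3.15% for aCSF1R, 9.04%, 7.69% and 3.04% for IL-10-Fc, and 6.57%, 2.99% and 3.12% for BF10. The high values thus sat in 4 libraries from 3 groups, while the other 8 lay between 2.99% and 3.61%, and the groups overlapped. The means were 4.50% ± 2.33 (SD, n = 3), 3.36% ± 0.229, 6.59% ± 3.15 and 4.23% ± 2.03. An exact permutation test over the 369600 assignments of the libraries to the groups gave F = 1.15 and p = 0.331. For the 5 pairs of groups, two-sided exact permutation p-values ranged from 0.3 to 1 (0.75 to 1 after Benjamini-Hochberg adjustment), where 3 libraries against 3 cannot give a p under 0.1. The SDs of Ctrl-IgG, IL-10-Fc and BF10 were each larger than at least 3 of the 5 differences between group means.

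The 4 libraries with a high share were the 4 with the largest FPKM sum and the lowest Actb. All 4 carry a sample title code of 1 to 4, a number that the labels do not explain. Among the 5 libraries with codes 5 to 7, which come from every group, the share was 2.99% to 3.30%, and among the 7 with codes 1 to 4 it was 3.00% to 9.04%. The nuclear genes of oxidative phosphorylation overlapped here in share but not in FPKM. Their share of the FPKM sum was 2.57% to 3.07% in the 4 libraries and 2.04% to 2.66% in the others. Their summed level was 22041 to 25707 FPKM in the 4 libraries and 12981 to 18520 FPKM in the others. The 22 markers of skeletal muscle, a tissue rich in mitochondria, summed to 68.3 to 93.7 FPKM in the 4 libraries and 96.7 to 1568 FPKM in the others. The highest of these sums was in Ctrl-IgG replicate 3, whose mitochondrial share was 3.30%. A relation of muscle content to the share was not tested. In bulk tumour tissue, fewer cells of a type and less RNA per cell cannot be told apart.

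**Figure D1:**
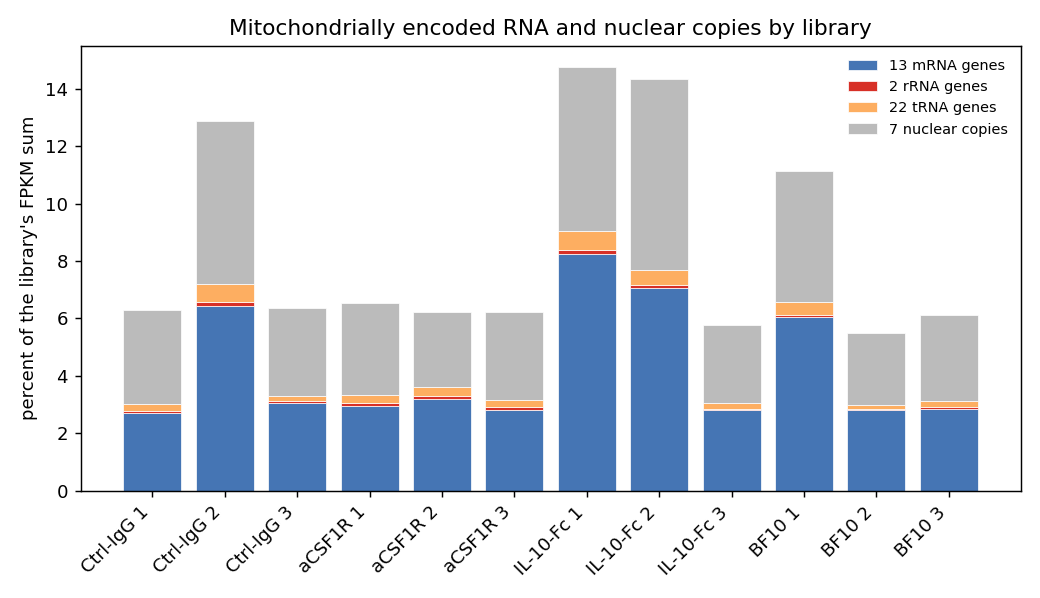
Stacked bars give, for each of the 12 libraries, the percent of the FPKM sum taken by the mt mRNA, rRNA and tRNA genes and, in grey, by 7 nuclear copies of mitochondrial genes. The 37 genes alone reach 6.57% to 9.04% in 4 libraries and stay at or below 3.61% in the other 8.

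Messenger RNA made up 88.6% to 94.1% of the mitochondrial FPKM, tRNA 4.66% to 8.50% and rRNA 1.22% to 3.58%. The mRNA share of the library followed the whole, from 2.71% in Ctrl-IgG replicate 1 to 8.26% in IL-10-Fc replicate 1. mt-Co1, the catalytic subunit of cytochrome c oxidase, alone took 0.723% (BF10 replicate 2) to 2.33% (Ctrl-IgG replicate 2) of a library. At the low end, mt-Nd3 as listed took 0.00328% to 0.0504%.

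A stretch of the nuclear genome repeats part of the mitochondrial one, and this touches 7 of the 13 mRNA genes. On chromosome 1, between 24611535 and 24616197 on the minus strand of GRCm38, 7 pseudogenes lie in the order of the genes they copy. Gm10925 matched mt-Atp6 at 678 of 678 bases, Gm28661 matched mt-Co2 at 681 of 681, Gm28437 matched mt-Co3 at 783 of 783, Gm10222 matched mt-Nd4l at 294 of 294, and Gm28439 matched the beginning of mt-Nd4 at 876 of 876. The last 43 bases of mt-Atp8, which mt-Atp6 shares, match Gm10925 too. Gm29216 matched the last part of mt-Co1 at 482 of 483 bases, and Gm28438 matched mt-Nd3 at 344 of 345. The lone difference in mt-Nd3 is T3C, counted from the first base of the gene, with the base of mt-Nd3 first. The starts of the pair are shown because no other of the 345 aligned bases differs (capitals mark the base that differs).
mt-Nd3, chrM:9459-9499, plus strand: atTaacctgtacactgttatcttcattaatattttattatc
Gm28438, chr1:24613079-24613119, minus strand: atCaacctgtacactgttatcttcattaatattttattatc

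The deposited table gave much of the signal to these copies. For mt-Atp6, a subunit of the proton channel of ATP synthase, the gene itself was listed at 126 to 2276 FPKM and Gm10925 at 6158 to 26608 FPKM, so that the copy held 91.5% to 98.2% of the pair. The copy also held 71.3% to 96.4% of the pair for mt-Co3 and 80.7% to 96.6% for mt-Nd3. For mt-Co2, the copper-binding subunit of cytochrome c oxidase, the split ranged from 35.8% on the copy in IL-10-Fc replicate 1 to 82.7% in Ctrl-IgG replicate 1. Pairs with identical sequence did not all divide alike: Gm10222 held 44.8% of the mt-Nd4l pair in Ctrl-IgG replicate 1, 6.12% in IL-10-Fc replicate 2 and at most 0.0112% in the other 10 libraries, and Gm28439 was at 0 to 0.48 FPKM. For mt-Co1, whose copy covers the last part alone, the copy held 7.23% to 10.3%. In each of these pairs the copy was weighted by the part of the gene it covers. Reads from a gene and from an identical copy cannot be told apart, so the listed level of each of these 7 genes is uncertain. Together, and at their full FPKM without weights, the copies held 38.7% to 52.3% of the sum of the 37 genes and the copies.

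Adding each copy to its gene, weighted by the part of the gene it covers, narrowed the spread over libraries for 5 genes. The highest library stood 17.997-fold above the lowest for mt-Atp6 as listed and 4.27-fold with the copy. The same ratio went from 22.1 to 4.66 for mt-Co3, from 21.9 to 7.02 for mt-Nd3, from 10.04 to 3.25 for mt-Co2 and from 10.1 to 5.79 for mt-Nd4l, while for mt-Co1 it went from 4.45 to 4.53. The 6 mRNA genes to which no copy was added spanned 3.86-fold (mt-Nd1) to 5.69-fold (mt-Cytb). For the share of the library the copies were added at their full FPKM, without weights. With them the share was 6.30%, 12.9% and 6.36% in Ctrl-IgG, 6.53%, 6.24% and 6.23% under aCSF1R, 14.8%, 14.3% and 5.78% under IL-10-Fc, and 11.1%, 5.48% and 6.12% under BF10. The same 4 libraries were high, and the groups did not differ beyond their spread (exact permutation test, F = 1.23, p = 0.285). This sum was added after the values had been seen, as was every value below that includes the copies.

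**Figure D2:**
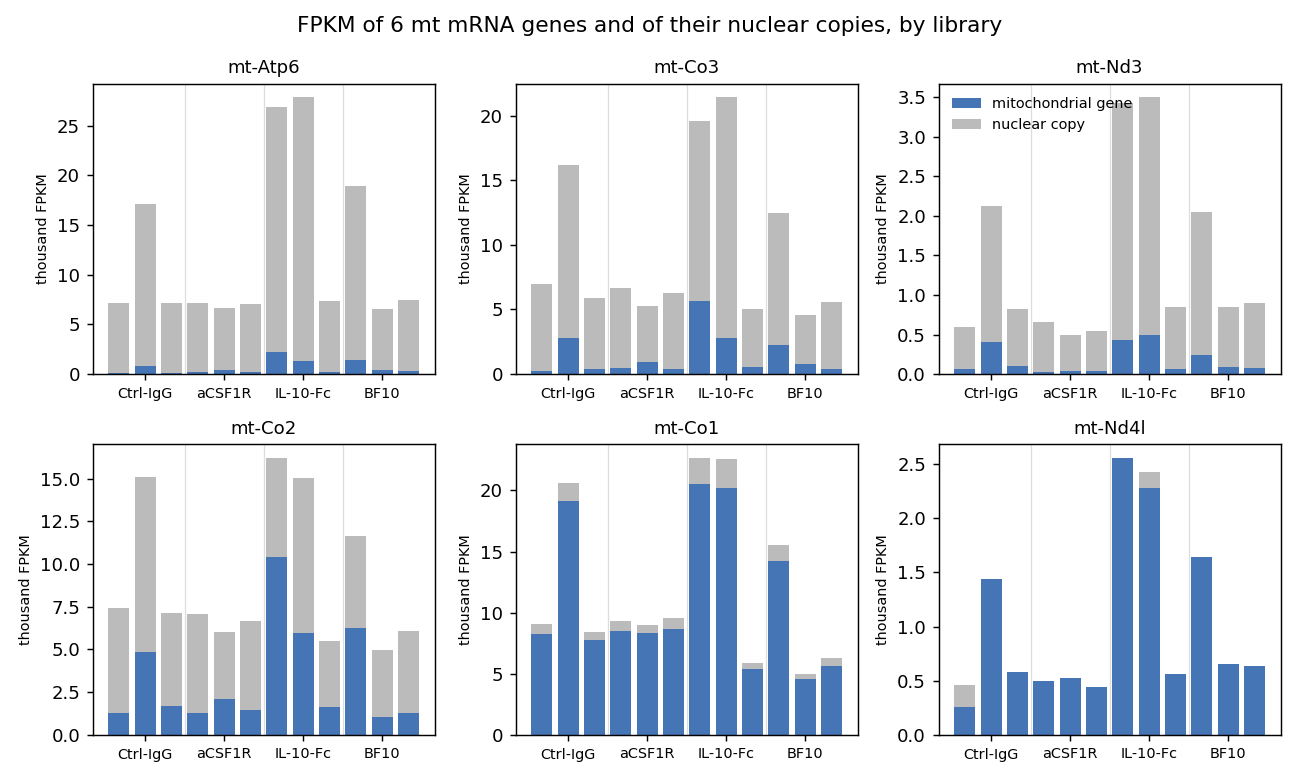
Each panel shows 1 mt mRNA gene, with a bar per library (3 per group) of its FPKM as listed (blue) and of its nuclear copy, weighted by the length it covers (grey). For mt-Atp6 the copy holds 91.5% to 98.2% of the pair in every library, and for mt-Co1 7.23% to 10.3%.

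With copies added, the members ranked by mean level as mt-Atp6, mt-Co1, mt-Co3, mt-Co2 and mt-Atp8, then mt-Cytb, mt-Nd1, mt-Nd4, mt-Nd3, mt-Nd2, mt-Nd4l, mt-Nd6 and mt-Nd5, with the rRNA genes last. mt-Atp6 and mt-Co1 changed places between groups: mt-Co1 was higher in every Ctrl-IgG and aCSF1R library and mt-Atp6 in every IL-10-Fc and BF10 library. Neighbours further down the order also crossed in some libraries.

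**Figure D3:**
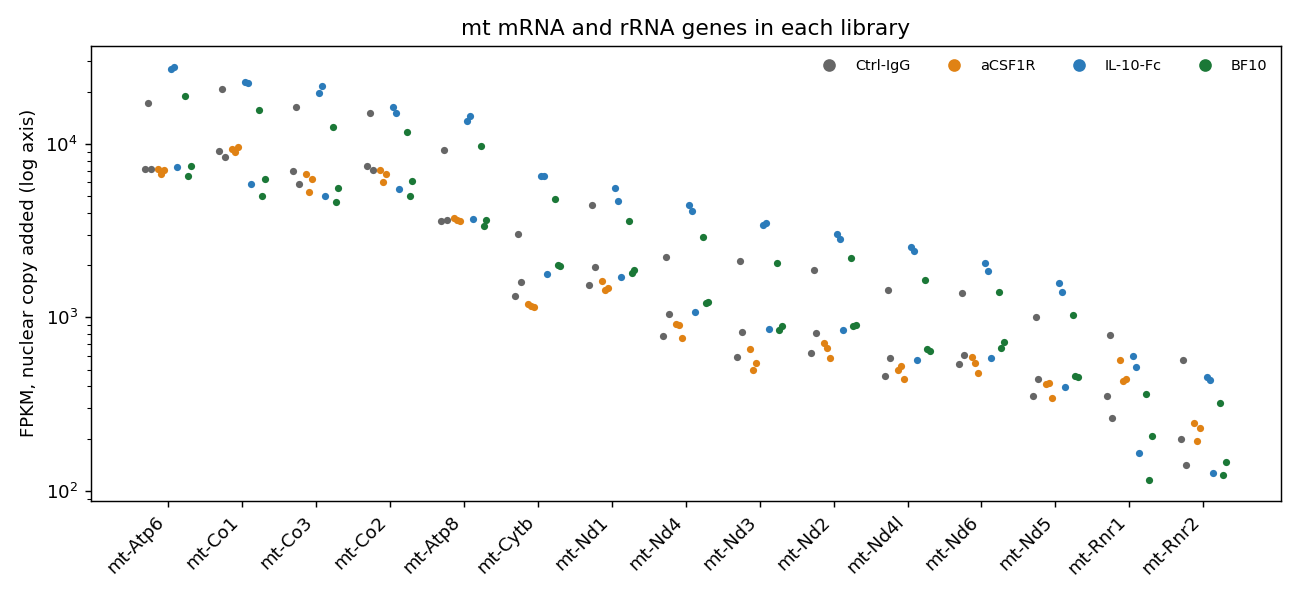
Points are the FPKM of each mt mRNA and rRNA gene in the 12 libraries on a log axis, with the nuclear copy added and genes ordered by mean level. mt-Atp6 reaches 6519 to 27843 FPKM, and mt-Rnr1 116 to 787 FPKM.

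The complex I subunits form the membrane arm of NADH dehydrogenase. Of these, mt-Nd1 was listed at 1528, 4456 and 1946 FPKM in Ctrl-IgG, 1626, 1443 and 1481 under aCSF1R, 5570.3, 4710.02 and 1697 under IL-10-Fc, and 3579, 1799 and 1872 under BF10. It was high in the 4 libraries with a high mitochondrial share and at 1443 to 1946 FPKM elsewhere. mt-Nd2 spanned 583 to 3015 FPKM, mt-Nd4 762 to 4416, mt-Nd4l 253 to 2555 and mt-Nd5 344 to 1569.9. mt-Nd6, the only mRNA on the minus strand, spanned 476 to 2046 FPKM, and its ratio to mt-Nd5 on the other strand stayed between 1.302 and 1.59 in all 12 libraries. mt-Nd3 was listed at 70.2, 411 and 103 FPKM in Ctrl-IgG, 22.5, 35.4 and 37.2 under aCSF1R, 430.3, 493 and 70.8 under IL-10-Fc, and 238, 87.6 and 80.8 under BF10. As listed, all aCSF1R libraries were below all others, and with the copy added they spanned 498 to 657 FPKM, against 593 to 2124 in Ctrl-IgG.

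mt-Cytb, the only member in complex III, where it carries the haems that pass electrons from ubiquinol, has no copy of the kind above. It was at 1323, 3033 and 1588 FPKM in Ctrl-IgG, 1200.0, 1168 and 1154 under aCSF1R, 6559, 6499 and 1782 under IL-10-Fc, and 4809, 1994 and 1966 under BF10. All aCSF1R libraries were below every library of the other groups, and the lowest IL-10-Fc library lay inside the Ctrl-IgG range. The cytochrome c oxidase (complex IV) gene mt-Co1 was at 8291, 19097 and 7779.9 FPKM in Ctrl-IgG, 8530.5, 8325 and 8669.9 under aCSF1R, 20509, 20218 and 5367 under IL-10-Fc, and 14246, 4609 and 5644 under BF10. Its low libraries were thus in IL-10-Fc and BF10, where those of mt-Cytb were under aCSF1R. mt-Co2 with its copy spanned 4974 to 16189 FPKM and mt-Co3 4592 to 21403. In complex V, the ATP synthase, mt-Atp6 with its copy spanned 6519 to 27843 FPKM and mt-Atp8, which overlaps it on the same transcript, 3352 to 14422.

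Once the copies were added, the rRNA genes had the lowest mean levels of the 15 mRNA and rRNA genes, in libraries made by selecting poly(A) RNA. mt-Rnr1, the rRNA of the small subunit, was at 350.5, 787 and 263 FPKM in Ctrl-IgG, 570.1, 431 and 442 under aCSF1R, 598, 521 and 165 under IL-10-Fc, and 362, 116 and 208 under BF10. BF10 was below aCSF1R in every library and overlapped the other groups. mt-Rnr2, the rRNA of the large subunit, spanned 123 to 566 FPKM. The share of both in the library was 0.0374% to 0.165%, with group means of 0.101% ± 0.0564 (SD, n = 3) in Ctrl-IgG, 0.104% ± 0.0133 under aCSF1R, 0.0844% ± 0.0350 in IL-10-Fc and 0.0568% ± 0.0216 under BF10, and did not differ between the groups beyond their spread (exact permutation test, F = 1.10, p = 0.405).

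Set against the mRNA, the rRNA did separate the groups. There were 2.89, 2.57 and 1.94 FPKM of rRNA per 100 FPKM of mt mRNA in Ctrl-IgG, 4.04, 2.97 and 3.42 under aCSF1R, 1.34, 1.39 and 1.59 under IL-10-Fc, and 1.32, 1.33 and 1.86 under BF10. Every aCSF1R library was above every Ctrl-IgG library, and each of these 6 was above every IL-10-Fc and BF10 library, while the latter groups overlapped. An exact permutation test of the log2 ratio over the 4 groups gave F = 19.2 and p = 0.000974. With the copies added to the mRNA the same exact permutation test gave F = 27.9 and p = 0.000649. By pairs, the exact permutation p was 0.1, the smallest that 3 libraries against 3 can give, for 4 of the 5 pairs (0.125 adjusted), and 1 for BF10 against IL-10-Fc. The part of poly(A) selection in this ratio was not tested. RNAs that carry no poly(A) tail, most of them histone genes, were set beside this ratio. Rpph1 among them, the RNA of ribonuclease P, was at 5.19 to 23.8 FPKM across Ctrl-IgG and aCSF1R and 0.15 to 0.67 FPKM in the others. Its limma difference was -3.04 ± 0.46 (SE, log2) in IL-10-Fc and -2.77 ± 0.46 in BF10 against Ctrl-IgG (adjusted p = 0.000686 and 0.00155), the largest fall of these RNAs. Hist1h2al, a histone gene, had their largest rise, with differences of 2.33 ± 0.29 and 2.57 ± 0.29 (limma adjusted p = 0.000193 and 0.0001575). Of the 37 genes of that list that were tested, 4 rose and 3 fell under IL-10-Fc, and 4 rose and 2 fell under BF10. Their median differences were -0.03 and 0.03, beside -0.39 and -0.12 over all genes. In percent the counts that rose lie near the 10.1% and 11.8% of all genes that rose in these comparisons, and those that fell lie below the 23.6% and 13.2% that fell.

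The tRNA genes are 59 to 75 bases long, short beside a sequenced fragment, so their FPKM depend on the length correction. Of the 22, mt-Tf and mt-Ts2 were listed at 0 in all 12 libraries, and 12 to 19 were above 0 in a given library. mt-Ts1 and mt-Tn, which carry serine and asparagine, together held 63.9% to 82.3% of the tRNA FPKM, and their sequences are given because they carry most of this class. Both are on the minus strand, and the last 3 bases of mt-Ts1 (capitals) lie opposite the end of mt-Co1 shown above.
mt-Ts1, chrM:6870-6938, minus strand: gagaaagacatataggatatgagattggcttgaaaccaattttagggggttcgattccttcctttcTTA
mt-Tn, chrM:5089-5159, minus strand: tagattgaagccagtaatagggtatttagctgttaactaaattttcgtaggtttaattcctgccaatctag

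mt-Ts1 was at 705, 2204 and 725 FPKM in Ctrl-IgG, 789.7, 1151 and 697 under aCSF1R, 4466, 3515 and 644 under IL-10-Fc, and 2442, 315 and 691 under BF10. Its high libraries were the 4 with a high mitochondrial share, and it ran at 0.0684 to 0.218 of the mt-Co1 level. mt-Tn spanned 251 to 999 FPKM. Of the others, mt-Th spanned 37.8 to 598 FPKM, mt-Te 56.5 to 300.4 and mt-Ty 32.3 to 289. mt-Tr, the arginine tRNA, was listed at 0 in each of the 6 Ctrl-IgG and aCSF1R libraries, at 13.7, 29.7 and 0 FPKM in IL-10-Fc and at 7.54, 0 and 0 FPKM under BF10.

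Gene by gene, the groups were compared with limma on log2(FPKM + 1), fitted to the 15813 genes that reached 1 FPKM in 3 or more libraries, with p-values adjusted over all of them. Calls required a fold of 1.5 or more with an adjusted p below 0.05, and fold changes on this scale understate the change of low genes. All 13 mRNA genes, both rRNA genes and 19 of the 22 tRNA genes were tested, 34 members in all. The members left out were mt-Tf, mt-Ts2 and mt-Ti. No member was called in any of the 5 comparisons (0 of 34 in each). The share of all genes called was 0% for aCSF1R against Ctrl-IgG, 33.7% for IL-10-Fc against Ctrl-IgG (10.1% higher and 23.6% lower), 24.9% for BF10 against Ctrl-IgG (11.8% higher and 13.2% lower), 0.0126% for BF10 against IL-10-Fc, and 25% for BF10 against aCSF1R (11% higher and 14% lower). At an unadjusted p under 0.05 in limma, the members numbered 1 (mt-Nd3), 2 (mt-Cytb and mt-Tr), 0, 2 (mt-Tl1 and mt-Tq) and 1 (mt-Nd3) in that order. Of all 15813 genes tested, 437, 7142, 5740, 828 and 5907 had such a p in the same order.

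In aCSF1R against Ctrl-IgG, the median log2 difference of the mRNA genes was -0.48, with 12 of 13 below 0 (9 of 13 with quantile normalization), beside a median of 0.11 over all genes tested. Without Ctrl-IgG replicate 2, the library of that group with a high share, this median was -0.02, with 7 of 13 below 0. mt-Nd3 had the lowest value, -2.18 ± 0.80 (SE), which was -0.85 ± 0.61 once its copy was added (limma adjusted p = 0.959 and 0.958). mt-Nd3, mt-Cytb and mt-Tm were lower in every aCSF1R library than in any Ctrl-IgG library, 3 of 34 members, where 6.04% of all genes were lower without overlap.

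In IL-10-Fc against Ctrl-IgG, all 13 mRNA genes had a positive difference (11 of 13 with quantile normalization), with a median of 0.98 beside -0.39 over all genes. mt-Cytb, at 1.19 ± 0.54 (SE, limma adjusted p = 0.110), and mt-Tr, at 2.94 ± 1.11 (adjusted p = 0.0630), came nearest to a call. mt-Atp6 differed by 1.84 ± 0.92 as listed and by 0.88 ± 0.58 with its copy, and mt-Co3 by 1.66 ± 1.05 and 0.55 ± 0.60, so the listed differences were larger than those of gene and copy together. The count of 0 rested on single libraries: without IL-10-Fc replicate 3, the library of that group with a low share, 12 members were called, all higher, where 13.2% of all genes were called higher in the same fit. Without Ctrl-IgG replicate 2 there were 3, also higher (mt-Atp6, mt-Tw and mt-Nd4l), beside 9.43% of all genes. The rRNA genes differed by -0.16 ± 0.57 (mt-Rnr1) and 0.22 ± 0.60 (mt-Rnr2).

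In BF10 against Ctrl-IgG, the median of the mRNA genes was 0.19, with 8 of 13 above 0, beside -0.12 over all genes. mt-Cytb differed by 0.52 ± 0.54 (SE), mt-Co1 by -0.58 ± 0.59 and mt-Rnr1 by -1.01 ± 0.57 (limma adjusted p = 0.537, 0.534 and 0.230). Without BF10 replicate 1, the BF10 library with a high share, the median of the mRNA genes turned to -0.23. In BF10 against IL-10-Fc, all 13 mRNA genes (11 of 13 with quantile normalization, 5 of 13 relative to the mitochondrial sum) and both rRNA genes had a negative difference, with medians of -0.73 and -0.78 beside 0.34 over all genes, and the smallest adjusted p of a member was 0.478.

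In BF10 against aCSF1R, 12 of 13 mRNA genes had a positive difference (10 of 13 with quantile normalization), with a median of 0.71 beside -0.21 over all genes. mt-Nd3, at 1.91 ± 0.80 (SE) as listed and 1.04 ± 0.61 with its copy (limma adjusted p = 0.108 and 0.240), and mt-Cytb, at 1.18 ± 0.54 (adjusted p = 0.136), had the largest differences among the mRNA genes, and mt-Co1 was the exception at -0.24 ± 0.59. In all, 8 mRNA genes (mt-Nd1, mt-Nd2, mt-Nd3, mt-Nd4, mt-Nd4l, mt-Nd5, mt-Nd6 and mt-Cytb) were higher in every BF10 library than in any aCSF1R library, where 19.8% of all genes were higher without overlap. mt-Rnr1, at -1.21 ± 0.57 (adjusted p = 0.146), was lower without overlap, as were 35.9% of all genes. These 8 mRNAs cover all of complex I and complex III, and none of the mRNAs of complexes IV and V was among them.

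The scale of the libraries moves these medians. With median-of-ratios size factors the median of the mRNA genes in IL-10-Fc against Ctrl-IgG was 1.48, and with quantile normalization 0.49. For BF10 against IL-10-Fc the medians were -1.18 and -0.21. Relative to the mitochondrial sum itself, that of BF10 against IL-10-Fc was 0.08.

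**Figure D4:**
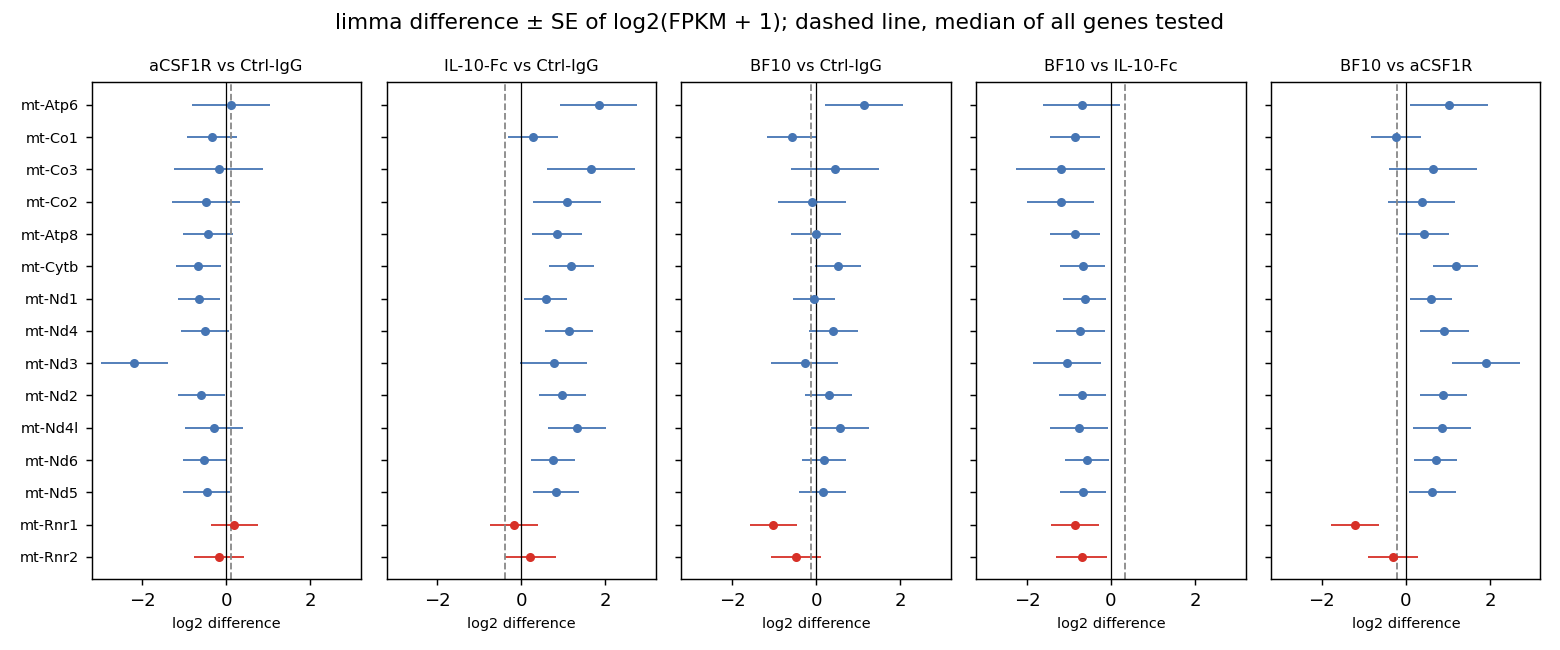
Points are limma log2 differences with their SE for the mt mRNA (blue) and rRNA (red) genes in the 5 comparisons, and the dashed line marks the median of all genes tested. In IL-10-Fc against Ctrl-IgG all mRNA genes lie above 0 on this scale (11 of 13 with quantile normalization), with mt-Co1 lowest at 0.28. In BF10 against aCSF1R 12 of 13 mRNA genes lie above 0 (10 of 13 with quantile normalization). There mt-Co1 lies at -0.24 and mt-Rnr1 at -1.21.

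The makeup of mitochondrial RNA separated groups whose amounts of it overlapped. To set the amount aside, each mRNA and rRNA gene was expressed as its percent of the sum of these 15 genes, with the copies added. This measure was chosen after the values had been seen, the percents are parts of a closed sum, so that a rise in some genes lowers the rest, and the exact permutation p-values are given unadjusted for the 15 genes compared. mt-Cytb held 3.23%, 3.12% and 3.92% of the sum in Ctrl-IgG, 2.90%, 3.12% and 2.91% under aCSF1R, 5.08%, 5.02% and 5.02% under IL-10-Fc, and 5.42%, 6.01% and 5.16% under BF10. All 6 IL-10-Fc and BF10 libraries were above all 6 others, although the amount of mitochondrial RNA among those 6 libraries spanned 2.99% to 9.04% of the library. Over the 4 groups F was 46.5, with an exact permutation p of 6.49e-05, the smallest that the 369600 assignments can give.

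mt-Co1 went the other way. It held 22.1%, 21.2% and 20.8% in Ctrl-IgG, 22.6%, 24.0% and 24.1% under aCSF1R, 17.5%, 17.4% and 16.6% under IL-10-Fc, and 17.5%, 15.04% and 16.5% under BF10 (exact permutation test, F = 45.9, p = 0.00039). mt-Rnr1 held 0.857%, 0.811% and 0.648% in Ctrl-IgG, 1.38%, 1.15% and 1.11% under aCSF1R, 0.463%, 0.402% and 0.466% under IL-10-Fc, and 0.409%, 0.349% and 0.547% under BF10 (exact permutation test, F = 36.6, p = 0.000649). For both genes, aCSF1R lay highest without overlap, Ctrl-IgG came next, and IL-10-Fc and BF10 overlapped each other below.

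Of the 15 genes, 6 were higher and 2 lower in every IL-10-Fc and BF10 library than in any library of the other groups. Measured relative to the same sum, 4.43% of all genes tested were higher and 7.17% lower without overlap. These shares are not a like background. The 15 genes are parts of the sum, so the swing of the libraries with a high mitochondrial share cancels for them. For genes outside the sum it is added. The 6 were mt-Cytb, mt-Atp6, mt-Nd2, mt-Nd3, mt-Nd4 and mt-Nd4l, and the 2 were mt-Co1 and mt-Rnr1. mt-Nd4 averaged 2.26% ± 0.335 (SD, n = 3), 2.19% ± 0.251, 3.21% ± 0.197 and 3.37% ± 0.236 in the order of the groups above (exact permutation p = 0.00429), and mt-Nd2 1.82% ± 0.258, 1.66% ± 0.163, 2.30% ± 0.102 and 2.51% ± 0.153 (exact permutation p = 0.00169). mt-Atp6 averaged 17.6% ± 0.125, 17.6% ± 0.372, 21.0% ± 0.436 and 20.2% ± 0.996 (exact permutation p = 0.00195), a difference that rests on its copy, since p was 0.113 without the copies. mt-Nd1 and mt-Co3 gave an exact permutation p of 0.261 and 0.274, and mt-Nd5 one of 0.0511.

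By complex, and with the copies added, subunits of complex IV made up 53.4% to 58.1% of mt mRNA across Ctrl-IgG and aCSF1R and 44.2% to 47.5% across IL-10-Fc and BF10. Complex I held 11.9% to 15.6% in the former and 16.2% to 19.8% in the latter, complex III 2.96% to 3.96% and 5.06% to 6.05%, and complex V 26.6% to 28.1% and 29.5% to 32.9%. With the copies, the sides did not overlap for any of the 4 complexes. As listed, without the copies, complex I overlapped, at 21.0% to 26.7% and 24.9% to 32.2%, while complex III (5.55% to 7.65% and 8.35% to 11.1%), complex IV (47.3% to 53.7% and 35.8% to 46.5%) and complex V (18.3% to 19.6% and 20.2% to 22.9%) did not.

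The ratio of mt-Co1 to mt-Cytb, 2 plus-strand genes at some distance on the same precursor, shows the same without any sum and, as listed, without the copies. It was 6.27, 6.30 and 4.90 in Ctrl-IgG, 7.11, 7.12 and 7.51 under aCSF1R, 3.13, 3.11 and 3.01 under IL-10-Fc, and 2.96, 2.31 and 2.87 under BF10. Within the libraries with title codes 5 to 7 it was 4.90 in Ctrl-IgG, 7.51 under aCSF1R, 3.01 in IL-10-Fc and 2.31 to 2.87 under BF10, the same order as over all libraries. The ratio of mt-Rnr1 to mt-Cytb was 0.165 to 0.475 across Ctrl-IgG and aCSF1R and 0.0580 to 0.106 in the others. mt-Rnr2 to mt-Rnr1 overlapped, at 0.434 to 0.718 and 0.706 to 1.06. These sides are the ones that Xist, Krt18 and H2-Ea also separate, so the makeup cannot be told apart from a difference of animal or tumour cell origin. BF10 against IL-10-Fc and aCSF1R against Ctrl-IgG lie within a side.

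**Figure D5:**
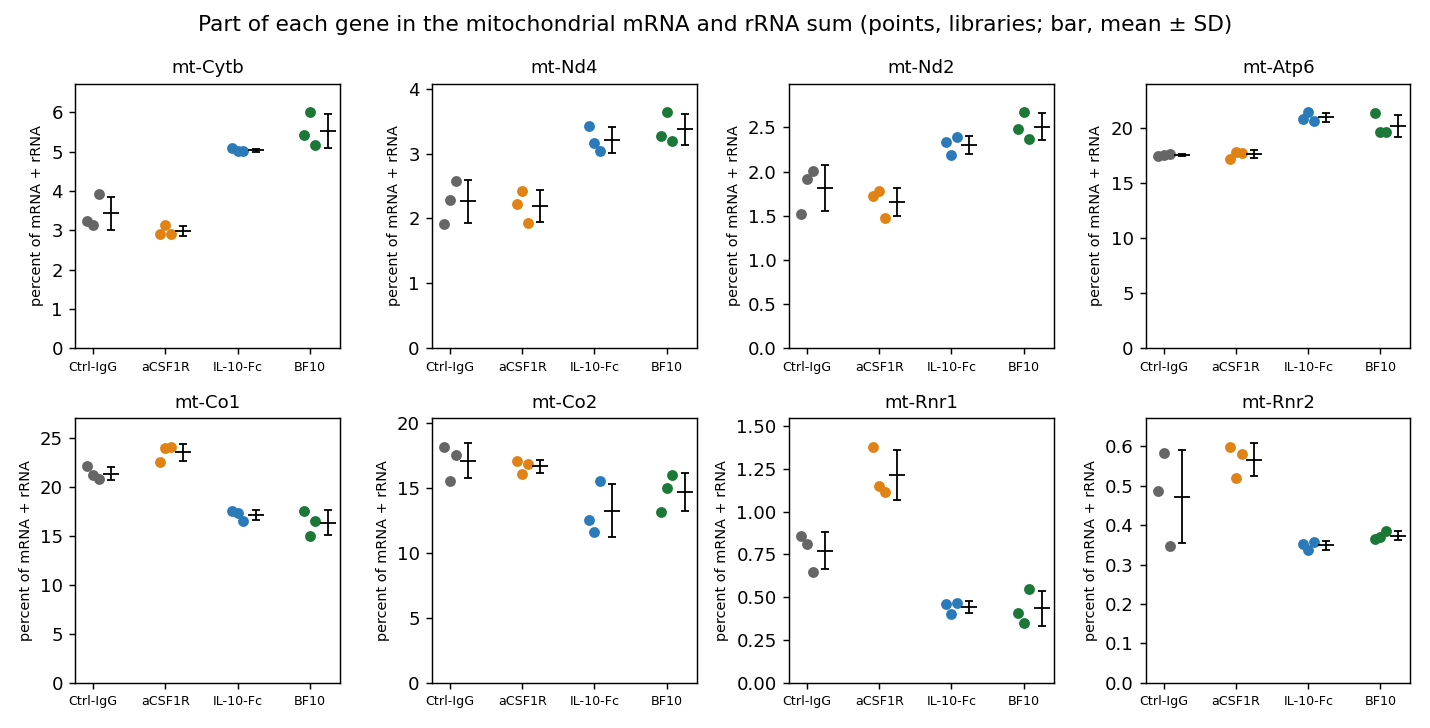
Points give, per library, the percent of the mt mRNA and rRNA sum held by 8 genes, with copies added, and bars beside them the mean ± SD of each group (n = 3). mt-Cytb lies at 2.90% to 3.92% in Ctrl-IgG and aCSF1R and 5.02% to 6.01% in IL-10-Fc and BF10, mt-Co1 lies lower in the latter, and the mt-Rnr2 groups overlap in part.

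Most subunits of the respiratory complexes are encoded in the nucleus. Of 77 such genes tested, 1 rose and 14 fell in IL-10-Fc against Ctrl-IgG, 1 rose and 7 fell in BF10 against Ctrl-IgG, and 1 rose and 6 fell in BF10 against aCSF1R, shares below those of all genes in both directions. None was called in the other 2 comparisons. Their median differences were -0.08, -0.27 and -0.07, against -0.39, -0.12 and -0.21 over all genes. Ndufb9, an accessory subunit of complex I, was the gene that rose, by 0.92 ± 0.19 (SE, log2) in IL-10-Fc and 0.72 ± 0.19 in BF10 (limma adjusted p = 0.00416 and 0.0177). Cyc1, the cytochrome of complex III next to mt-Cytb, fell by 1.55 ± 0.32 and 0.98 ± 0.32 on the log2 scale (adjusted p = 0.00420 and 0.0487), while the share of mt-Cytb within mitochondrial RNA was higher there. Atp5g1, of the ring of ATP synthase, fell by 1.14 ± 0.18 and 0.89 ± 0.18 (adjusted p = 0.000932 and 0.00481).

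Of 78 genes of the mitochondrial ribosome, whose RNA parts are mt-Rnr1 and mt-Rnr2, 3 rose and 21 fell in IL-10-Fc and 1 rose and 12 fell in BF10 against Ctrl-IgG, with medians of -0.49 and -0.34. Against aCSF1R, 2 rose and 7 fell under BF10. Beside these stand medians of -0.39 and -0.12 over all genes, of which 10.1% rose and 23.6% fell, 11.8% rose and 13.2% fell, and 11% rose and 14% fell in the same order, so the falls of the list lie near or below the background and its rises below it. Mrpl34, a protein of the large subunit, fell by 2.34 ± 0.37 (SE, log2) in IL-10-Fc and by 1.46 ± 0.37 in BF10 (limma adjusted p = 0.000893 and 0.0146). Among 16 genes of mtDNA replication and transcription, 1 rose and 4 fell in each of these 3 comparisons, against the same shares of all genes. With so few genes no difference from those shares was tested. Mgme1, a nuclease of mtDNA maintenance, was at 17.1 to 21.8 FPKM across Ctrl-IgG and aCSF1R and 2.24 to 6.98 FPKM in the others, and fell by 2.34 ± 0.27 in IL-10-Fc and 1.85 ± 0.27 in BF10 (adjusted p = 0.000140 and 0.000763). Mterf2, of a family that binds mtDNA, was at 0.87 to 1.69 FPKM and 3.16 to 10.9 FPKM in the same order, and rose (differences of 1.87 ± 0.36 and 1.21 ± 0.36, adjusted p = 0.00260 and 0.0296).

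Of 29 genes that cut, modify or stabilise mitochondrial RNA, 12 fell in IL-10-Fc and 7 in BF10 against Ctrl-IgG, and 5 fell in BF10 against aCSF1R, with none higher, and medians of -0.88, -0.74 and -0.56. In percent these are above the 23.6%, 13.2% and 14% of all genes that fell, a difference that was not tested. Fastkd3, a member of a family of mitochondrial RNA-binding proteins, was at 20.2 to 33.6 FPKM across Ctrl-IgG and aCSF1R and 5.79 to 9.76 FPKM in the others (-1.84 ± 0.22 in BF10 against Ctrl-IgG, limma adjusted p = 0.000248). Fastkd1 (-2.32 ± 0.46, adjusted p = 0.00328), Tbrg4 (-2.31 ± 0.63, adjusted p = 0.0158) and Ptcd1 (-2.31 ± 0.49, adjusted p = 0.00449) had the largest falls under IL-10-Fc. Lrpprc, which binds and stabilises mitochondrial mRNAs, was picked after its values were seen: it was at 27.9 to 33.1 FPKM against 5.09 to 16.1 FPKM (-1.96 ± 0.35 in IL-10-Fc and -1.25 ± 0.35 under BF10, adjusted p = 0.00177 and 0.0232). Its partner Slirp was not called, at 0.25 ± 0.50 and -0.47 ± 0.50 (adjusted p = 0.716 and 0.550).

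Of 15 genes of the mitochondrial stress response and quality control, 1 rose and 7 fell in IL-10-Fc and 4 fell in BF10 against Ctrl-IgG, and 6 fell in BF10 against aCSF1R, beside the 23.6%, 13.2% and 14% of all genes that fell. The difference from these shares was not tested. Atf4, a transcription factor of that response, was at 251 to 314 FPKM across Ctrl-IgG and aCSF1R and 53.4 to 121 FPKM in the others, a fall of 2.04 ± 0.25 (SE, log2) in IL-10-Fc and 1.61 ± 0.25 in BF10 (limma adjusted p = 0.000173 and 0.000972). Hspa9, a chaperone of the matrix, fell by 1.67 ± 0.28 and 1.21 ± 0.28 (adjusted p = 0.00133 and 0.00980). Of 8 regulators of mitochondrial biogenesis, 1, Ppargc1b, fell in IL-10-Fc (by 0.99 ± 0.33, adjusted p = 0.0389) and none was called in the other comparisons.

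Among the genes whose pattern over the 12 libraries was most like the mean log2 level of the 13 mt mRNA genes, of 5151 genes averaging 20 FPKM or more, were Smim20, which assists the assembly of cytochrome c oxidase (Pearson r = 0.989), Gm14303 (0.981), Ndufs8, a subunit of complex I (0.981), and Gm10123 (0.981). The libraries share the 4 with large FPKM sums, so the values describe these libraries only. Smim20 was at 21.3 to 28.4 FPKM in 8 libraries and 45.1 to 66.8 FPKM in the 4 with a high mitochondrial share, and Ndufs8 at 68.9 to 76.7 FPKM against 129 to 186 FPKM. Both genes were picked for their likeness over these 12 libraries, so that they set the same 4 libraries apart follows from the choice.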

How the data were processed

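Tumour RNA of 12 libraries was extracted with Trizol, prepared with a stranded poly(A) kit (TruSeq Stranded mRNA) and sequenced on a NextSeq 550. The FPKM table was deposited by the authors, rounded to 2 decimals and aligned to GRCm38 (mm10). The submitters' processing notes name STAR 2.7.5a, RSEM 1.3.3 and DESeq2 1.30.0. Read depth cannot be read from the table, so no counting interval is given. The authors' 4 tables of comparisons (log2 fold changes, their errors, test scores and p-values) were not used.

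Groups were taken from the sample labels, with 3 libraries each. The labels do not say that libraries came from separate animals, so p-values measure the spread between libraries, which may be technical. The members, gene lists and tests were chosen with earlier results of these data known.

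The 15813 genes that reached 1 FPKM in 3 or more libraries were tested as log2(FPKM + 1) with limma 3.58.1 in R 4.3.3 (lmFit on all 12 libraries without covariates, 5 contrasts, eBayes with a trend), with Benjamini-Hochberg adjustment over all genes. Adjusted p-values in the text are from this limma fit unless another test is named. Shares and ratios were compared by exact permutation of the libraries (F over 4 groups, two-sided mean difference for pairs). The fit was tested on simulated data.

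Positions came from GENCODE M21, which held 55141 of the 55401 gene IDs. Nuclear copies were found with blastn 2.17.0 (at least 99% identity, 200 aligned bases and 90% of the copy aligned). The search covered annotated transcripts and not the genome between them. The remaining steps used Python 3.11.15 with numpy 2.4.6, pandas 2.3.3, scipy 1.17.1 and matplotlib 3.10.9. All 37 members could be named. From each nuclear list, up to 3 called genes with the largest rise and up to 3 with the largest fall were named per comparison, and the 5 genes most like the members by Pearson r, of which 1 is not reported here. Alternatives were another pseudocount, filters, 4 scalings, a title code term, fits of 2 groups and leaving out each library. Adding the nuclear copies, scaling to the mitochondrial sum and the percent of mitochondrial RNA were chosen after seeing the data.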

Additional observations from a re-analysis of the deposited data

How the results depend on the processing

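No paired analysis was possible because the groups compared share fewer than 2 replicate numbers in the labels. The count of members called stayed at 0 in aCSF1R against Ctrl-IgG under all 17 alternatives. In IL-10-Fc against Ctrl-IgG it was 3 with a title code term (mt-Atp6, mt-Cytb and mt-Tr) and 0 to 12 when a library was left out, with 12 without IL-10-Fc replicate 3 and 3 without Ctrl-IgG replicate 2. All of these members were higher, and the same fits called 1999, 2093 and 1491 of 15813 genes higher in that order. In BF10 against Ctrl-IgG it was 1 relative to the mitochondrial sum (mt-Cytb) and 0 to 1 with a library left out (mt-Tk without BF10 replicate 1, mt-Tm without BF10 replicate 2). Relative to that sum, 531 of 15808 genes were called higher, as mt-Cytb was. Counts over all genes on this scale are not a like background, since most genes are not parts of the sum. Without these BF10 libraries, 1735 and 1345 of 15813 genes were called lower, as mt-Tk and mt-Tm were. In BF10 against IL-10-Fc it was 0 to 1 (mt-Tm without BF10 replicate 2, where 3 of 15813 genes were called lower). In BF10 against aCSF1R it was 3 with quantile normalization (mt-Nd3 and mt-Cytb higher, mt-Rnr1 lower), 2 with a title code term, 1 when the 2 groups were fitted alone, 5 relative to the mitochondrial sum, and 0 to 1 with a library left out (mt-Tm without BF10 replicate 2). Over all genes the same fits called 2295 higher and 2389 lower with quantile normalization and 2038 higher and 3480 lower with the title code term. When the 2 groups were fitted alone, 2074 genes were called higher and 2954 lower. Relative to the mitochondrial sum the numbers were 491 and 760, and without BF10 replicate 2 they were 1188 and 1431. The cause of these changes was not tested.

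Differences in mitochondrial share changed sign with single libraries, none with a p under the threshold. With a library left out, aCSF1R minus Ctrl-IgG ran from -1.88 to 0.210 percentage points (positive without Ctrl-IgG replicate 2), BF10 minus aCSF1R from -0.307 to 1.49 (negative without BF10 replicate 1), and BF10 minus Ctrl-IgG from -1.44 to 1.08. The last was 1.08 without Ctrl-IgG replicate 2, 0.351 without BF10 replicate 2 and 0.284 without BF10 replicate 3. The rRNA to mRNA ratio over the 4 groups kept its side of the threshold under all 14 alternatives. The methods of the study give a range of reads per sample but not the depth of each library, so precision rests on 3 libraries a group.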
